A study of Mus musculus with 31 samples.

Results

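The loss of XBP1 and the loss of IRE1α were compared in untreated mouse liver by a difference of differences. It is the log2 change from WT littermates to Xbp1 ko (knockout) minus the log2 change from WT littermates to Ire1 ko. The comparison takes the 15 of 31 arrays of the series that were given neither siRNA nor tunicamycin. They formed 4 groups of male mice aged 14 weeks in the fed state: 4 WT littermates of Xbp1 ko, 4 Xbp1 ko, 4 WT littermates of Ire1 ko and 3 Ire1 ko. Arrays within a group are biological replicates, per the labels. They give the strain as C57BL/6 for both WT groups and for Xbp1 ko but as mixed for Ire1 ko, so the Ire1 genotype and the strain cannot be told apart. The labels used here name no Cre driver, so the cells that carry each deletion are not known. The material was total liver RNA, in which fewer cells of a type and less RNA per cell cannot be told apart.

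IRE1α, the product of Ern1, is a sensor in the membrane of the endoplasmic reticulum (ER). When unfolded proteins build up, its nuclease domain removes a short intron from the Xbp1 mRNA. The spliced mRNA encodes the active transcription factor XBP1, which switches on genes for protein entry, folding, glycosylation and export from the ER. The same nuclease can cut other mRNAs at the ER, a process called regulated IRE1-dependent decay. Loss of either protein removes spliced XBP1, but only the loss of IRE1α also removes the nuclease. Hepatocytes secrete most plasma proteins and depend heavily on the ER. The comparison therefore asks which genes respond alike to both losses and which respond to 1 of them.

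Values are microarray intensities on a linear scale with a floor of 3. The median intensity was 5 on every array and 66.5% of all values were 6 or less, so folds of dim genes are compressed. The median within-group SD of log2 intensity, over 5915 genes with a group mean of at least 16, lay between 0.16 and 0.20 in the 4 groups. Xbp1 itself read 912, 807, 1140 and 916 in WT littermates and 505, 404, 567 and 404 in Xbp1 ko, which is a log2 change of -1.01 (SE 0.13; limma adjusted p = 3.31e-05). The Xbp1 arrays did not overlap between these groups. In Ire1 ko Xbp1 read 784, 715 and 765 against 904, 880, 1151 and 799 in its WT littermates, a log2 difference of -0.29 that was not called (adjusted p = 0.593). Ern1 read 150, 153 and 148 in Ire1 ko, within the 121 to 203 of its WT littermates. The labels do not name the deleted part of Ern1, so this value does not check that knockout.

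Of the genes for protein entry into the ER, 12 of 27 fell in both knockouts, as did 11 of 38 for folding and 10 of 53 for export. In Xbp1 ko 6 of 12 carboxylesterases, 12 of 44 complement and coagulation genes and 7 of 41 lysosomal genes fell, whereas limma called 0 members of these 3 lists lower in Ire1 ko. At an adjusted p of 0.05, limma called 407 of 15415 genes (2.64%) in Xbp1 ko, 314 lower (2.04%) and 93 higher (0.603%). In Ire1 ko it called 119 genes (0.772%), 106 lower (0.688%) and 13 higher (0.0843%). The Ire1 split was 93 lower and 29 higher after every array had been shifted to one median of its brighter probe sets, and 203 genes were called in 1 fit over all 31 arrays. The Ire1 count was 69 without Ire1 ko replicate 3, 73 without Ire1 ko replicate 2 and 75 without replicate 1 of its WT littermates. The difference of differences called 93 genes (0.603%), of which 81 were lower (0.525%) and 12 higher (0.0778%). Of these, 79 of the 81 and all 12 had a group mean of at least 16, as did 5915 of the 15415 genes. A negative difference means a lower value after Xbp1 loss relative to Ire1 loss. An unadjusted p under 0.05 was reached by 1260 of the 15415 genes, in both directions together. These values over all genes are the background for the member counts of the gene lists. The median SE of a gene was 0.13 for the Xbp1 effect, 0.14 for the Ire1 effect and 0.19 for their difference, so the difference is the least precise of the 3 values.

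The largest class of called genes, 170 lower in Xbp1 ko, had a call neither in Ire1 ko nor in the difference. Its medians were -0.66 in Xbp1 ko and -0.19 in Ire1 ko. Another 85 genes were higher in Xbp1 ko, again without those calls. The text follows 2 other classes. In the first, 66 genes (0.428%) were lower in both knockouts, which is 21% of the genes lower in Xbp1 ko and 62.3% of those lower in Ire1 ko. For 65 of them the difference of differences was not called, with median log2 changes of -0.94 in Xbp1 ko and -0.91 in Ire1 ko. The 95% confidence interval of the difference lay within 2-fold either way for 58 of the 65. The same held for 13815 of the 14956 genes called in neither knockout nor the difference. The 65 were chosen for a difference that was not called, and 2-fold is about as large as their median changes. In the second, 78 genes were lower in Xbp1 ko with the difference called and no call in Ire1 ko. Their medians were -1.36 in Xbp1 ko and 0.05 in Ire1 ko, and the Ire1 interval excluded 50% of the Xbp1 log2 change for 77 of the 78. These medians and interval counts describe classes that were chosen by the same values and support nothing further. The number of genes called in the 2 knockouts in opposite directions was 0, against 3 called higher in both (0.0195%). The first class held 42 genes without Ire1 ko replicate 3, 29 when each experiment had its own estimate of spread and 101 in 1 fit over all 31 arrays. In the same 3 fits the second class held 75, 77 and 97 genes.

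**Figure D1:**
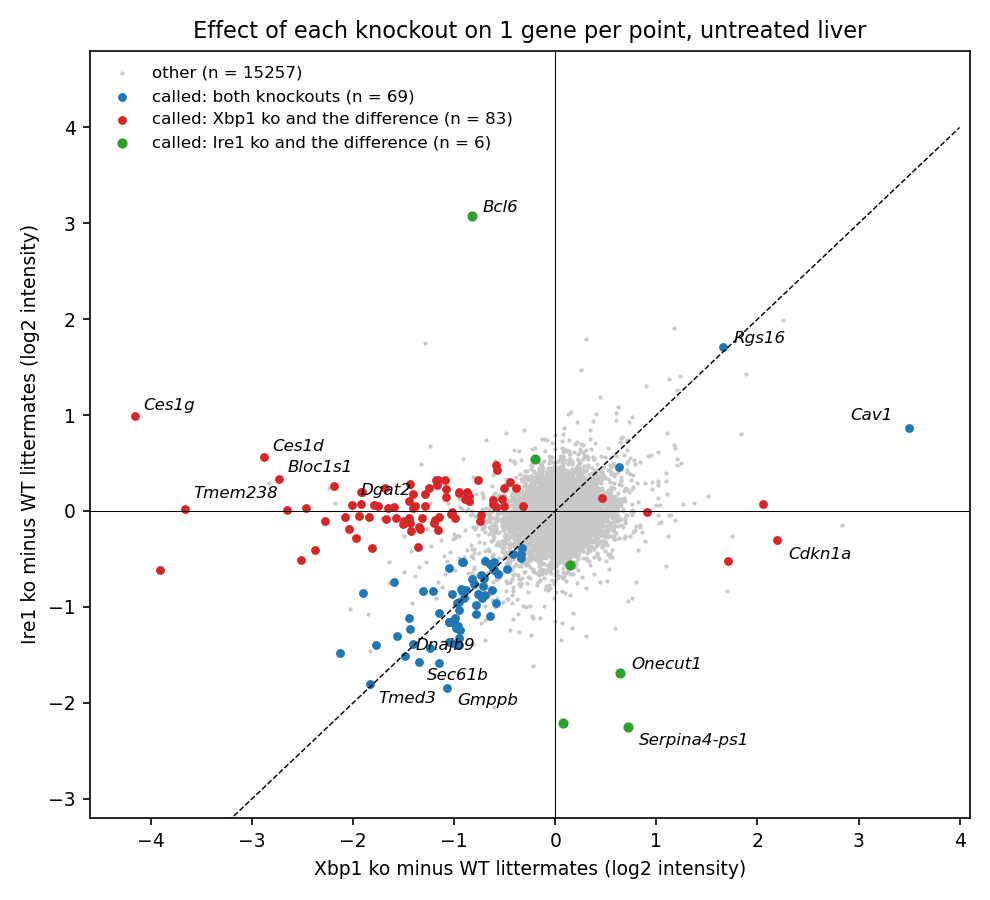
Log2 change from WT littermates in Xbp1 ko (horizontal) and in Ire1 ko (vertical) for 15415 genes, with the dashed line marking equal effects. Genes called in both knockouts (blue) lie around the dashed line, with differences of -0.86 to 0.78 for the 65 lower genes without a called difference. Cav1 and Mlec are the blue genes with a called difference. The 83 genes called in Xbp1 ko and in the difference (red) lie at vertical values between -0.62 and 0.99. The grey points include 2 genes called in the difference alone. They also include genes called in 1 knockout but not in the difference: 170 lower and 85 higher in Xbp1 ko, 36 lower and 8 higher in Ire1 ko.

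Part of the machinery that carries proteins into the ER fell in both knockouts. Of 27 tested members of the Sec61 translocon, the translocon-associated TRAP complex, the signal recognition particle and signal peptidase, 12 fell in Xbp1 ko, 13 in Ire1 ko and 12 in both, and the difference called 0 (limma; 2 higher at an unadjusted p under 0.05). The list medians were -0.34 and -0.52, against 0 and -0.03 over all genes. Of the 27 members 24 had a group mean of at least 16, against 5915 of the 15415 genes, so the background is dimmer. Sec61b, a subunit of the channel, read 462, 476, 475 and 464 in WT littermates and 160, 182, 219 and 179 in Xbp1 ko. It read 406, 516, 524 and 407 in the other WT group and 173, 156 and 137 in Ire1 ko. Neither knockout overlapped its WT littermates, and the knockouts overlapped each other. Its log2 changes were -1.35 (SE 0.12; adjusted p = 2.06e-07) and -1.57 (SE 0.13; adjusted p = 1.13e-06), and the difference of 0.22 had an interval of -0.14 to 0.58. Sec61a1, the pore subunit, changed by -0.96 and -1.03 (difference interval -0.27 to 0.42). The signal peptidase subunits Spcs2 and Sec11c changed by -0.96 and -1.44 in Xbp1 ko and by -1.20 and -1.23 in Ire1 ko. Ssr1, a TRAP subunit, read 342 to 398 in the first WT group against 203 to 242 in Xbp1 ko, and 379 to 398 in the second against 200 to 213 in Ire1 ko.

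Some chaperones and oxidoreductases of the ER also fell in both knockouts. Of 38 tested, 20 fell in Xbp1 ko, 12 in Ire1 ko and 11 in both, and 1 was called lower in the difference. At an unadjusted p under 0.05 (limma), 6 were lower in the difference and 0 higher. The medians were -0.56 and -0.44. Dnajb9, a co-chaperone of BiP and a classical XBP1 target, read 241, 288, 223 and 157 in WT littermates against 83, 88, 70 and 77 in Xbp1 ko. In the Ire1 experiment it read 196, 131, 192 and 266 against 52, 111 and 51. Both knockouts lay below all their WT littermates, and the Ire1 ko arrays spread more than 2-fold. Hyou1, a large chaperone of the ER, changed by -1.41 (adjusted p = 9.65e-06) and -1.38 (adjusted p = 0.000166), with an interval of -0.52 to 0.47 for the difference. P4hb, the protein disulfide isomerase, read 1814 to 1968 against 902 to 1066 and 1927 to 2195 against 1007 to 1170, and its log2 changes of -0.95 in each knockout had the narrowest of these intervals, -0.21 to 0.22. Sdf2l1, part of a chaperone complex with DnaJ proteins, changed by -1.77 and -1.40.

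The call within this list was Erp44, which retrieves client proteins from the early Golgi. Erp44 read 500, 518, 534 and 545 in WT littermates and 129, 152, 160 and 159 in Xbp1 ko. It read 381, 432, 488 and 497 in the other WT group and 346, 374 and 309 in Ire1 ko. Both knockouts lay below their WT arrays, but the Ire1 change of -0.39 was not called (adjusted p = 0.166) and the difference was -1.42 (SE 0.15; adjusted p = 1.46e-05). That call was lost, at an adjusted p of 0.0598, on averaging the probe sets of each gene. The other Erp44 probe set was dim, with a mean intensity of 8.5. Txndc5, another oxidoreductase, was lower in both knockouts at -1.31 and -0.84, and its interval of -0.74 to -0.21 for the difference excluded 0 although the adjusted p was 0.131.

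In N-glycosylation 14 of 43 genes fell in Xbp1 ko, 12 in Ire1 ko and 11 in both, and the difference called 0 (4 lower and 1 higher at an unadjusted p under 0.05). The medians were -0.24 and -0.30. Ostc, a subunit of the oligosaccharyltransferase that attaches the sugar chain, changed by -1.25 and -1.43. Uggt1, which marks misfolded glycoproteins for another folding round, read 48 to 55 in the first WT group and 15 to 23 in Xbp1 ko, and 52 to 65 in the second and 25 to 30 in Ire1 ko. Gmppb, which makes GDP-mannose, was lower by -1.07 in Xbp1 ko and -1.85 in Ire1 ko. Its WT littermates already differed: they read 20, 24, 52 and 19 in the Xbp1 experiment and 76, 53, 63 and 63 in the other, and its Xbp1 call was lost in 8 of 26 alternatives. Rpn1, another oligosaccharyltransferase subunit, fell by 1.35 in Xbp1 ko, with -0.58 in Ire1 ko not called (adjusted p = 0.0996). Mlec, malectin, which binds glucosylated glycans, was the 1 gene lower in both knockouts with the difference called, and it is named because of that value. It read 101 to 142 against 29 to 37, and 123 to 138 against 62 to 87, with a difference of -1.06 (adjusted p = 0.0185). That call was lost in 7 of 26 alternatives, among them averaged probe sets (-0.21; adjusted p = 0.899). A second Mlec probe set, with a mean intensity of 51.5, changed by -0.37 in Xbp1 ko and -0.73 in Ire1 ko. Its difference of 0.36 has the opposite sign.

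Some genes of vesicle transport out of the ER fell in both knockouts as well. Of 53 genes for COPII and COPI coats and cargo receptors, 14 fell in Xbp1 ko, 12 in Ire1 ko and 10 in both, with 0 called in the difference (limma; 1 lower and 4 higher at an unadjusted p under 0.05). Tmed3, a cargo receptor of the p24 family, read 65, 82, 90 and 37 in WT littermates and 15, 14, 26 and 20 in Xbp1 ko, then 72, 64, 107 and 95 and 31, 25 and 17 in the Ire1 experiment. Its log2 changes of -1.84 and -1.81 were nearly equal, but the interval of the difference was wide (-0.85 to 0.79). Sec23b and Sec24d, subunits of the inner COPII coat, changed by -0.99 and -0.64 in Xbp1 ko and by -1.22 and -1.09 in Ire1 ko. For ER-associated degradation, which removes misfolded proteins, 4 of 25 genes fell in Xbp1 ko, 1 in Ire1 ko and 0 were called in the difference (limma; 1 lower and 1 higher unadjusted). Other genes lower in both knockouts included Chid1, a chitinase-like secreted protein (-2.13 and -1.48), Rdh11, a retinol dehydrogenase (-1.57 and -1.30), and Ikbke, a kinase of innate immune signalling (-1.16 and -1.59). The Ire1 call of Rdh11 was lost in 12 of 26 alternatives.

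XBP1 is known to bind a core of the letters CCACGT, alone, within TGACGTGG or in the ER stress response element (CCAAT, then 9 bases, then CCACG). Promoter windows from 250 bases before to 50 after the gene start were taken from RefSeq on build GRCm38.p6. They matched 54 of the 66 genes lower in both knockouts and 59 of the 78 genes lower in Xbp1 ko with the difference called. CCACGT on either strand occurred in 21 of the 54 (38.9%) and in 2 of the 59 (3.39%), against 12.1% of 12319 tested genes and 9.4% of 27025 genes in the table. TGACGTGG, which on the other strand holds CCACGT, occurred in 4 of the 54 (7.41%) and 0 of the 59, against 0.974% of the tested genes. The response element occurred in 2 of the 54 (3.7%) and 0 of the 59, against 0.154%. The windows also differed in composition, with a median of 23 CpG per window in the first class, 14.5 in the second and 17 over all tested genes. A match is a description of letters, not a binding site, and the part of base composition was not tested.

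Stretches of 60 bases of these promoters, 5′ to 3′ on the strand of the gene, show the element in 8 genes lower in both knockouts and in 1 of the 2 genes of the second class that hold it. Capitals mark CCACGT or its reverse complement ACGTGG, the longer TGACGTGG, or the CCAAT and CCACG parts of the response element.
Tmed3, chr9:89705205-89705264, minus strand: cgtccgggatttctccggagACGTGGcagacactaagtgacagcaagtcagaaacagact
Dnajb9, chr12:44210137-44210196, minus strand: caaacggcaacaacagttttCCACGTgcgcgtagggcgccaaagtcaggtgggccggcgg
P4hb, chr11:120573271-120573330, minus strand: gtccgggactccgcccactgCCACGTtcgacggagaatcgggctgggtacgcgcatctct
Ssr1, chr13:37994242-37994301, minus strand: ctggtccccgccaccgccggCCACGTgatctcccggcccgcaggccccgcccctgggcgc
Sec24d, chr3:123267436-123267495, plus strand: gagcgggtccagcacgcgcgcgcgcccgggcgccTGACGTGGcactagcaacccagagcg
Txndc5, chr13:38528013-38528072, minus strand: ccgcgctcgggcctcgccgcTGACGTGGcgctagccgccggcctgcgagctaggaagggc
Pdia6, chr12:17266471-17266530, plus strand: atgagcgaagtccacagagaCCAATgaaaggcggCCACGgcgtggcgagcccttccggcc
Dnajc3, chr14:118937807-118937866, plus strand: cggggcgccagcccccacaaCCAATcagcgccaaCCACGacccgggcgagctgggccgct
Lamp1, lower in Xbp1 ko with the difference called, chr8:13159081-13159140, plus strand: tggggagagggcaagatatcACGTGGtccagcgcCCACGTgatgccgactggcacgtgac
The capitals start 201 bases before the gene start in Tmed3, 108 in Dnajb9, 57 in P4hb, 73 in Ssr1, 26 in Sec24d and 138 in Txndc5. Lamp1 has 2 matches, which start 60 and 46 bases before the gene start. They start 98 bases before the gene start in Pdia6, a disulfide isomerase, and 105 in Dnajc3, a co-chaperone that restrains PERK. Pdia6 and Dnajc3 changed by -0.69 and -0.91 in Xbp1 ko and by -0.53 in each case in Ire1 ko, where the calls were lost in 16 and 10 of 26 alternatives. Several of these genes (P4hb, Ssr1, Txndc5, Pdia6, Dnajc3) were named for their promoters after their values were seen.

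Several carboxylesterases, serine hydrolases that act on lipid and drug esters, were called in the difference. Of 12 tested, 6 fell in Xbp1 ko, 0 in Ire1 ko (limma) and 5 were called lower in the difference. The study chose several of these genes on these samples, so the list is not independent evidence of its direction, and the enzymes are close paralogs whose probe sets may read more than 1 of them. Ces1f read 938, 964, 839 and 724 in WT littermates and 139, 151, 156 and 181 in Xbp1 ko. It read 855, 1036, 1208 and 1359 in the other WT group and 1131, 1101 and 1146 in Ire1 ko. Xbp1 ko lay 5.52-fold below its WT arrays, while Ire1 ko lay within its WT range, and the difference was -2.50 (SE 0.18; adjusted p = 8.65e-08). Ces1c, a plasma esterase of rodents, changed by -2.19 and 0.26, Ces1d by -2.89 and 0.56, and Ces1e by -3.91 and -0.62. Ces1g had the largest negative difference of all genes at -5.15 (SE 0.73; adjusted p = 0.000369), from 232, 314, 298 and 296 to 13, 13, 17 and 22 in Xbp1 ko. In the Ire1 experiment Ces1g was uneven, with 98, 21, 126 and 32 in WT littermates and 228, 143 and 37 in Ire1 ko, and the groups overlapped. Ces2a fell by 1.43 in Xbp1 ko, and its difference of -1.0 was not called (adjusted p = 0.1).

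Of 22 published substrates of IRE1 cleavage, 6 fell and 1 rose in Xbp1 ko and 0 were called in Ire1 ko (limma). The difference called 3 of them lower, against 0.525% of all genes. The medians were -0.02 in Xbp1 ko and 0.01 in Ire1 ko, close to the 0 and -0.03 of all genes. Bloc1s1, a subunit of a lysosome positioning complex and the best known substrate, read 144, 167, 150 and 128 in WT littermates and 21, 19, 26 and 23 in Xbp1 ko. It read 151, 145, 161 and 148 in the other WT group and 208, 199 and 168 in Ire1 ko, all above their WT littermates. The difference was -3.07 (SE 0.19; adjusted p = 9.29e-09), and the Ire1 change of 0.34 on its own was not called (adjusted p = 0.477). Hgsnat, a lysosomal acetyltransferase of heparan sulfate breakdown, changed by -2.66 and 0.01, and Tapbp, the tapasin of antigen loading, by -1.25 and 0.24. Ergic3 and Tmed10, both of early secretory vesicles, fell by 0.90 and 0.50 in Xbp1 ko. Their differences of -0.70 and -0.04 were not called (adjusted p = 0.329 and 0.965).

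Tmem238, a small membrane protein, was the gene called with the smallest p in the difference. It read 230, 195, 209 and 200 in WT littermates and 14, 15, 23 and 15 in Xbp1 ko, a 12.7-fold decrease. It read 235, 219, 212 and 242 in the other WT group and 234, 225 and 232 in Ire1 ko, and the difference was -3.69 (SE 0.20; adjusted p = 3.17e-09). Tex264, a receptor for autophagy of the ER, changed by -2.28 and -0.10. Retreg3, another such receptor, changed by -1.91 and 0.20, but it was dim, at 15 to 25 in the first WT group. Ptprf, a receptor phosphatase, changed by -1.92 and 0.20.

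**Figure D2:**
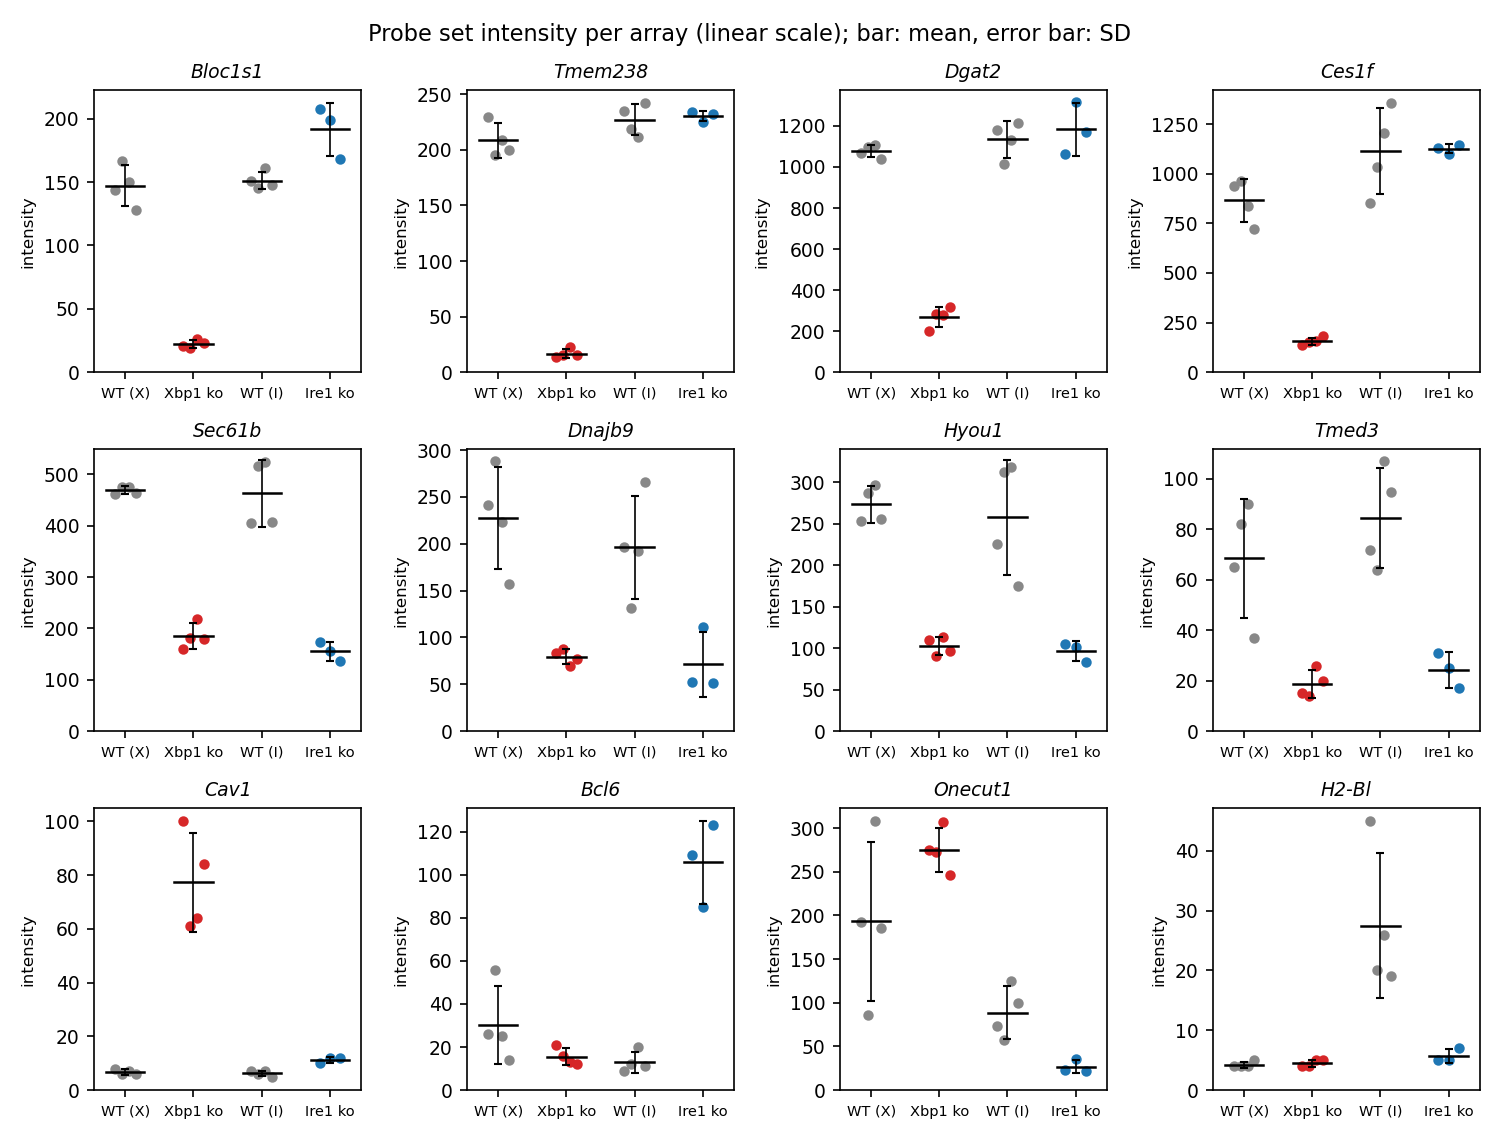
Intensity on each array (points) with group mean (bar) and SD (error bar) for 12 genes, in WT littermates of Xbp1 ko (WT (X), n = 4), Xbp1 ko (n = 4), WT littermates of Ire1 ko (WT (I), n = 4) and Ire1 ko (n = 3); each vertical axis is linear and starts at 0. The upper row shows genes low in Xbp1 ko alone, the middle row genes low in both knockouts, and the lower row genes with other patterns, such as Bcl6 at 85 to 123 in Ire1 ko against 9 to 56 elsewhere.

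Some genes of fat synthesis were called. Of 31 genes of lipogenesis and triglyceride synthesis, 4 fell and 1 rose in Xbp1 ko and 0 were called in Ire1 ko (limma). The difference called 3 of them lower, against 0.525% of all genes. Dgat2, which makes triglyceride, read 1069, 1097, 1106 and 1038 in WT littermates and 203, 282, 279 and 318 in Xbp1 ko. In the Ire1 experiment it read 1179, 1013, 1130 and 1216 against 1062, 1317 and 1169, and the groups overlapped. The difference was -2.07 (SE 0.16; adjusted p = 1.95e-07). The fatty acid desaturases Fads1 and Fads2 had differences of -1.22 and -1.18. Both calls were lost when probe sets were averaged, with Fads1 at -0.34 (adjusted p = 0.711). The averages took in dim probe sets, with a mean intensity of 6.3 for Fads1 and 11.2 for Fads2. Another Fads2 probe set, with a mean of 200, had a difference of -0.89.

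Genes of cholesterol synthesis lay below their WT littermates in both knockouts, with fewer calls in Ire1 ko. Of 20 genes 16 fell in Xbp1 ko, 5 in Ire1 ko and 3 in both, and limma called 0 in the difference, with 6 lower and 2 higher at an unadjusted p under 0.05. All 20 lay below 0 in each knockout, with medians of -0.97 in Xbp1 ko, -0.69 in Ire1 ko and -0.39 in the difference. Cyp51, a demethylase of the sterol ring, read 176, 218, 209 and 194 against 56, 30, 73 and 46 in the Xbp1 experiment. It read 291, 286, 153 and 277 against 81, 176 and 121 in the Ire1 experiment, where the groups overlapped. Its changes were -2.03 (adjusted p = 3.81e-05) and -1.02 (adjusted p = 0.118), and the difference of -1.0 had an adjusted p of 0.436. Fdps, which makes farnesyl diphosphate, fell by 1.60 and 0.74, but its Ire1 call was lost in 19 of 26 alternatives. Mvd, a decarboxylase of the mevalonate pathway, ran the other way at -0.61 and -2.04, and its WT littermates read 6 to 11 in the Xbp1 experiment and 15 to 75 in the other.

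Some genes of secreted plasma proteins fell in Xbp1 ko. Of 44 genes for complement, coagulation and protease inhibitors, 12 fell in Xbp1 ko, 0 fell and 1 rose in Ire1 ko, and 6 were called lower in the difference. At an unadjusted p under 0.05, 17 of the 44 were lower in the difference and 0 higher, with a list median of -0.24 against 0.05 over all genes. Proc, the anticoagulant protein C, read 1719, 1665, 1790 and 1674 against 504, 553, 612 and 606 in the Xbp1 experiment and 1947, 1937, 1773 and 2050 against 1742, 2089 and 2121 in the other. The first pair of groups was separated 3.02-fold and the second overlapped, with a difference of -1.63 (SE 0.11; adjusted p = 4.52e-08). Hc, complement component C5, changed by -1.68 and -0.09, F7, coagulation factor VII, by -1.45 and -0.07, and Serping1, the C1 inhibitor, by -1.08 and 0.15. Of 30 plasma carriers and acute phase proteins, 4 fell in Xbp1 ko, 0 were called in Ire1 ko (limma) and 3 were called lower in the difference. They were Afm, which binds vitamin E, at -1.55, Azgp1, a zinc-binding glycoprotein, at -1.10, and Itih4 at -1.01. The call of Itih4 was lost in 19 of 26 alternatives. Lrp1, an uptake receptor for lipoproteins, had a difference of -1.24, which became -0.42 and lost its call when probe sets were averaged. Its other probe set was dim, with a mean intensity of 6.4.

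A few lysosomal genes were called in the difference. Of 41 lysosomal genes, 7 fell and 1 rose in Xbp1 ko, and 0 fell and 1 rose in Ire1 ko. The difference called 4 of them lower, against 0.525% of all genes. The list medians were -0.04 in Xbp1 ko and 0.06 in Ire1 ko, against 0 and -0.03 over all genes. Besides Hgsnat these were Lamp1, the main membrane protein of lysosomes (-1.44; adjusted p = 2.65e-07), Gm2a, the GM2 activator (-1.07), and the peptidase Tpp1 (-1.01). Lamp1 read 1205 to 1306 in WT littermates, 416 to 535 in Xbp1 ko, 1291 to 1380 in the other WT group and 1316 to 1418 in Ire1 ko. The call of Gm2a was lost in 16 of 26 alternatives. Of 16 genes for antigen presentation by MHC class I, 4 fell in Xbp1 ko, 0 were called in Ire1 ko (limma) and 2 were called lower in the difference, Tapbp at -1.49 and the nonclassical class I molecule H2-T23 at -1.07. Of 42 genes for cytochromes P450 and bile acid synthesis, 6 fell and 3 rose in Xbp1 ko and 3 were called lower in the difference: Cyp1a2 at -1.44, Slc27a5, a bile acid ligase, at -0.65, and Cyp2e1 at -0.37. In the respiratory chain 2 of 59 genes were called, among them Ndufa9, a subunit of complex I, at -1.58 (adjusted p = 1.55e-06).

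**Figure D3:**
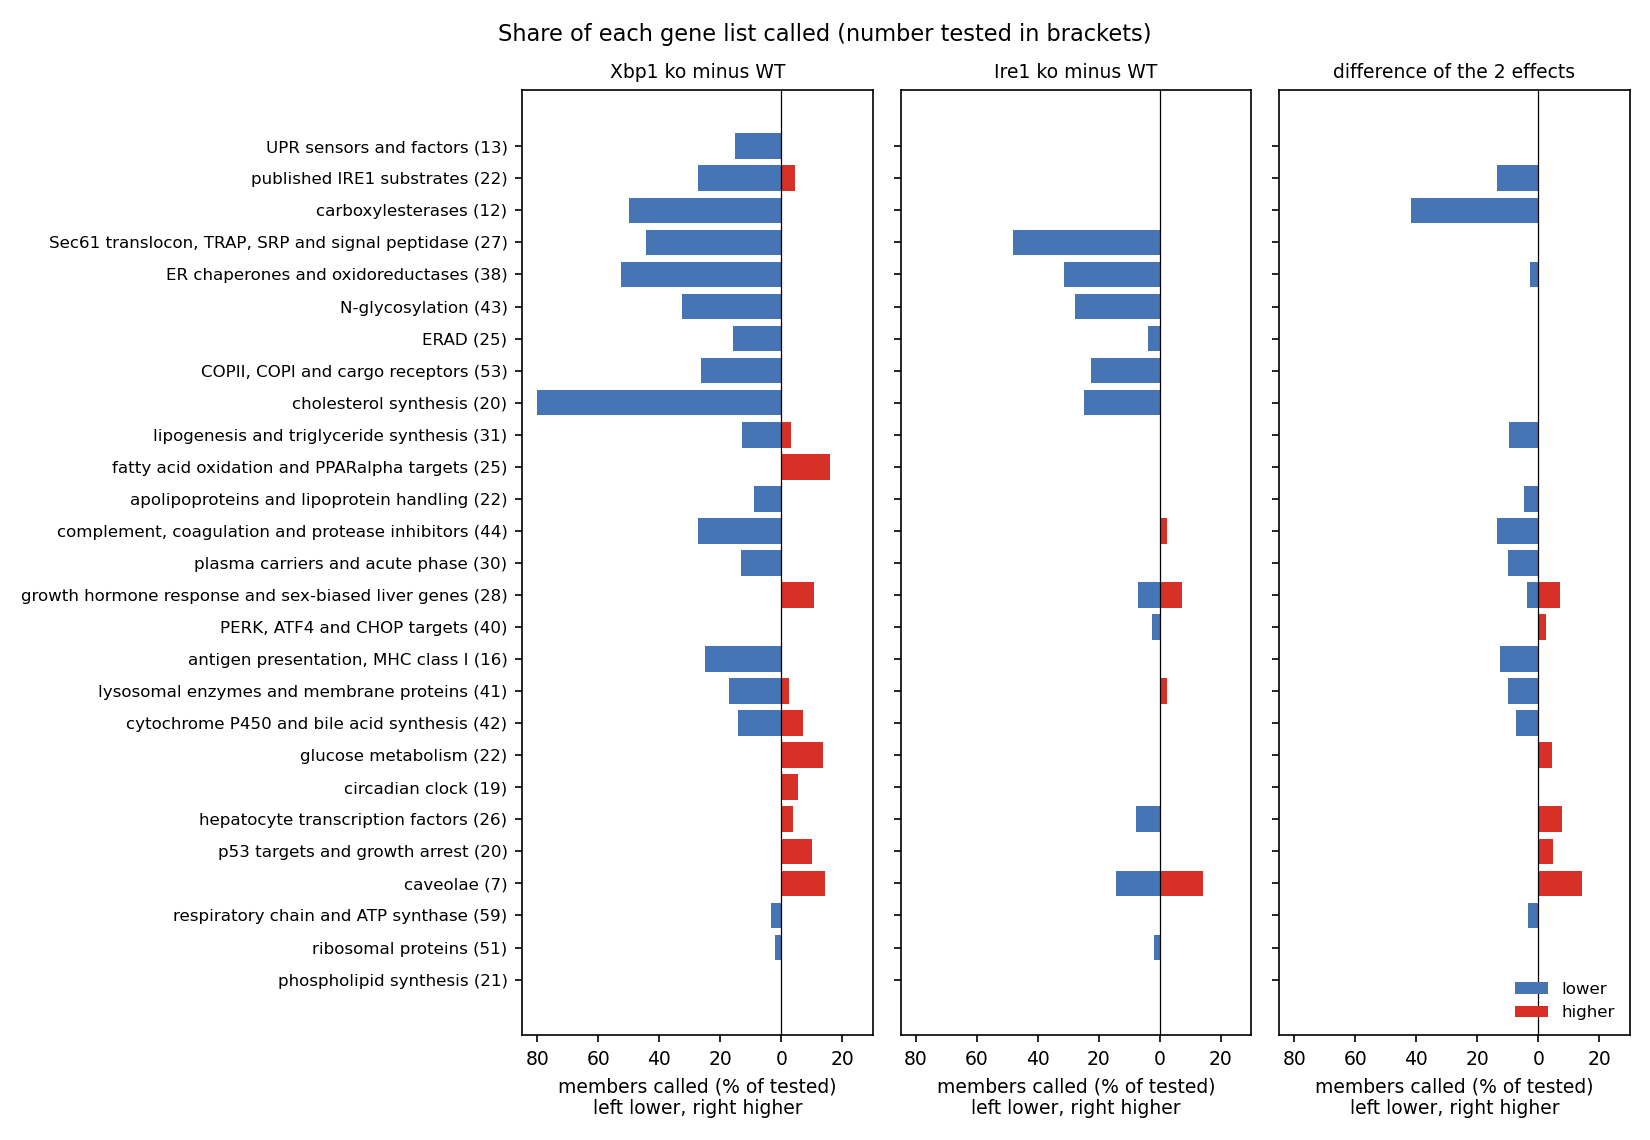
Share of the tested members of 27 gene lists called lower (blue, to the left of 0) or higher (red, to the right) in Xbp1 ko, in Ire1 ko and in the difference of differences, as a percent of the members tested, which are counted in brackets. The lists of protein entry, ER chaperones, N-glycosylation and vesicle coats have blue bars in both knockouts and at most 1 call in the difference, while carboxylesterases have blue bars in Xbp1 ko and in the difference but none in Ire1 ko.

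The 12 genes called higher in the difference were either raised in Xbp1 ko or lowered in Ire1 ko, and 2 of them were called in neither knockout alone. Their number was 21 with a filter at an intensity of 16 and 26 in 1 fit over all 31 arrays. Cav1, the main protein of caveolae, was called in both knockouts but rose most in Xbp1 ko, from 8, 6, 7 and 6 to 100, 61, 64 and 84. In the Ire1 experiment it read 7, 6, 7 and 5 against 10, 12 and 12, close to the floor, and that call was lost in 10 of 26 alternatives. The difference was 2.63 (SE 0.26; adjusted p = 3.78e-06). Cdkn1a, the cell cycle inhibitor p21, read 7 to 10 in WT littermates, 19 to 60 in Xbp1 ko and 5 to 8 in both groups of the Ire1 experiment, with a difference of 2.50 (adjusted p = 0.0016). It was the 1 gene of 20 p53 targets called in the difference. Dapk1, a death-associated kinase, read 60 to 76 in WT littermates and 120 to 132 in Xbp1 ko, and Fbp1, an enzyme of gluconeogenesis, 2399 to 2700 and 3428 to 3594. Their differences were 0.91 and 0.32, and the Fbp1 call was lost in 14 of 26 alternatives. Fbp1 also read 3407 to 3481 in Ire1 ko against 3077 to 3212 in its WT littermates, a log2 change of 0.14 that was not called. The WT groups of the Xbp1 and Ire1 experiments did not overlap for Fbp1. Adgrv1, an adhesion receptor, and Obp2a, an odorant-binding protein, rose from near the floor with calls lost in 19 of 26 and 12 of 25 alternatives.

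Some differences were set by Ire1 ko. Bcl6, a transcriptional repressor that responds to growth hormone, read 109, 85 and 123 in Ire1 ko and 9, 12, 20 and 11 in its WT littermates, an 8.42-fold increase. It read 26, 56, 25 and 14 in the other WT group and 21, 16, 13 and 12 in Xbp1 ko, which overlapped, and the difference was -3.89 (SE 0.46; adjusted p = 4.25e-05). Onecut1, a hepatocyte transcription factor that is also induced by growth hormone, read 23, 36 and 22 in Ire1 ko against 73, 57, 125 and 100 in its WT littermates. It read 193, 86, 308 and 186 in the WT group of the Xbp1 experiment and 275, 273, 307 and 246 in Xbp1 ko, so the WT groups differed from each other as well. Its difference was 2.33 (adjusted p = 0.00711), a call lost in 4 of 26 alternatives, and its Ire1 call was lost in 6. The difference of the related Onecut2 was 1.04 (adjusted p = 0.0367), with the call lost in 15 of 26. Cish, an inhibitor of growth hormone signalling, read 11 to 23 in Ire1 ko against 45 to 71. It is named after its values were seen, and its difference of 1.40 was not called (adjusted p = 0.19). Socs2, another inhibitor of that signal, had changes of 1.70 and -0.84 and a difference of 2.54 that was not called (adjusted p = 0.0686). Of the 28 genes in the list of growth hormone response and sex-biased liver genes, 1 was called lower and 2 higher in the difference. Over all genes 0.525% were called lower and 0.0778% higher.

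Rgs16, a regulator of G protein signalling, and Cisd3, a mitochondrial iron-sulfur protein, were higher in both knockouts, Rgs16 by 1.66 and 1.71 and Cisd3 by 0.63 and 0.46. The Ire1 call was lost in 16 of 26 alternatives for Rgs16 and in 7 for Cisd3. Serpina4-ps1, a serpin pseudogene, read 63, 102 and 167 in Ire1 ko against 364 to 772 in its WT littermates, with a difference of 2.97 (adjusted p = 5.02e-05). Hopx, a homeodomain cofactor, read 1057 to 1215 in WT littermates and 739 to 793 in Ire1 ko, with a difference of 0.71. Its arrays in the Xbp1 experiment lay at 649 to 816, close to the Ire1 ko level. H2-Bl, a class I histocompatibility gene, read 45, 20, 26 and 19 in the WT littermates of Ire1 ko and 4 to 7 in the 11 other arrays. Both WT groups carry the strain label C57BL/6 and yet did not overlap for this gene, so its difference of 2.29 does not compare 2 equal controls.

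The other arms of the stress response held few calls between the knockouts. Of 13 sensors and factors of the unfolded protein response, 2 fell in Xbp1 ko, 0 were called in Ire1 ko (limma) and 0 in the difference (1 lower and 1 higher unadjusted). Of 40 targets of PERK, ATF4 and CHOP, the arm that halts translation and raises amino acid supply, limma called 1 higher in the difference. It was Slc3a2, a chain of amino acid transporters, at 1.04 (adjusted p = 0.0264), a call lost in 12 of 26 alternatives. It read 117 to 175 in Xbp1 ko against 98 to 117, and 74 to 112 in Ire1 ko against 117 to 156, and neither change was called alone. At an unadjusted p under 0.05, 9 of the 40 were higher and 1 lower. Atf4 read 276 to 320 in WT littermates and 156 to 251 in Ire1 ko, a call lost in 19 of 26 alternatives, and its difference of 0.69 was not called (adjusted p = 0.212). Of 25 genes of fatty acid oxidation, 4 rose in Xbp1 ko and 0 in Ire1 ko, and limma called 0 in the difference with 1 lower unadjusted. In phospholipid synthesis, with 21 genes, limma called 0 in each of the 3 comparisons, and the difference had 1 lower and 2 higher at an unadjusted p under 0.05.

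Arrays that share no sample with the 15 gave a separate reading of the 2 classes. In the first set, Xbp1 ko mice aged 9 weeks had received siRNA against luciferase or IRE1 8 days earlier, with 4 arrays each. Ern1 read 21, 18, 23 and 35 in the arrays labelled luciferase and 169, 184, 236 and 230 in the arrays labelled IRE1, which goes against the labels. Directions are given as labelled, and all turn round if the labels are exchanged. Of the 78 genes lower in Xbp1 ko with the difference called, 67 were lower in the arrays labelled IRE1 siRNA and 0 higher, with a median of -1.15. Over all 14031 genes of that fit 1.15% were lower and 0.649% higher. Of the 66 genes lower in both knockouts 3 were lower and 0 higher there, and the 65 without a called difference had a median of 0.02. Bloc1s1 read 94, 134, 103 and 97 in the arrays labelled luciferase and 20, 23, 18 and 22 in those labelled IRE1, the latter close to its level in untreated Xbp1 ko. Dgat2 read 791 to 1055 against 203 to 286. Sec61b read 146 to 168 against 178 to 208, a log2 difference of 0.27 that was not called (adjusted p = 0.123).

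In the second set, WT and Ire1 ko mice aged 14 weeks were sampled 6 h after 2 mg/kg tunicamycin, which blocks N-glycosylation and loads the ER, with 4 arrays each. Of the 66 genes lower in both untreated knockouts, 61 were lower in Ire1 ko than in WT after tunicamycin and 0 higher, and the 65 without a called difference had a median of -1.55. Over all 13680 genes of that fit 9.49% were lower and 11% higher. Of the 78 genes lower in Xbp1 ko with the difference called, 55 were higher and 2 lower in Ire1 ko, with a median of 0.60. Sec61b read 847, 811, 887 and 772 in WT and 110, 85, 105 and 119 in Ire1 ko after the drug, and Tmed3 485 to 577 against 35 to 60. Bloc1s1 ran the other way, at 19, 11, 18 and 22 in WT and 110, 103, 135 and 117 in Ire1 ko (log2 difference 2.77; adjusted p = 0.000102). Ces1f read 58 to 169 in WT and 201 to 393 in Ire1 ko, both well below the untreated 724 to 1359 of WT liver.

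**Figure D4:**
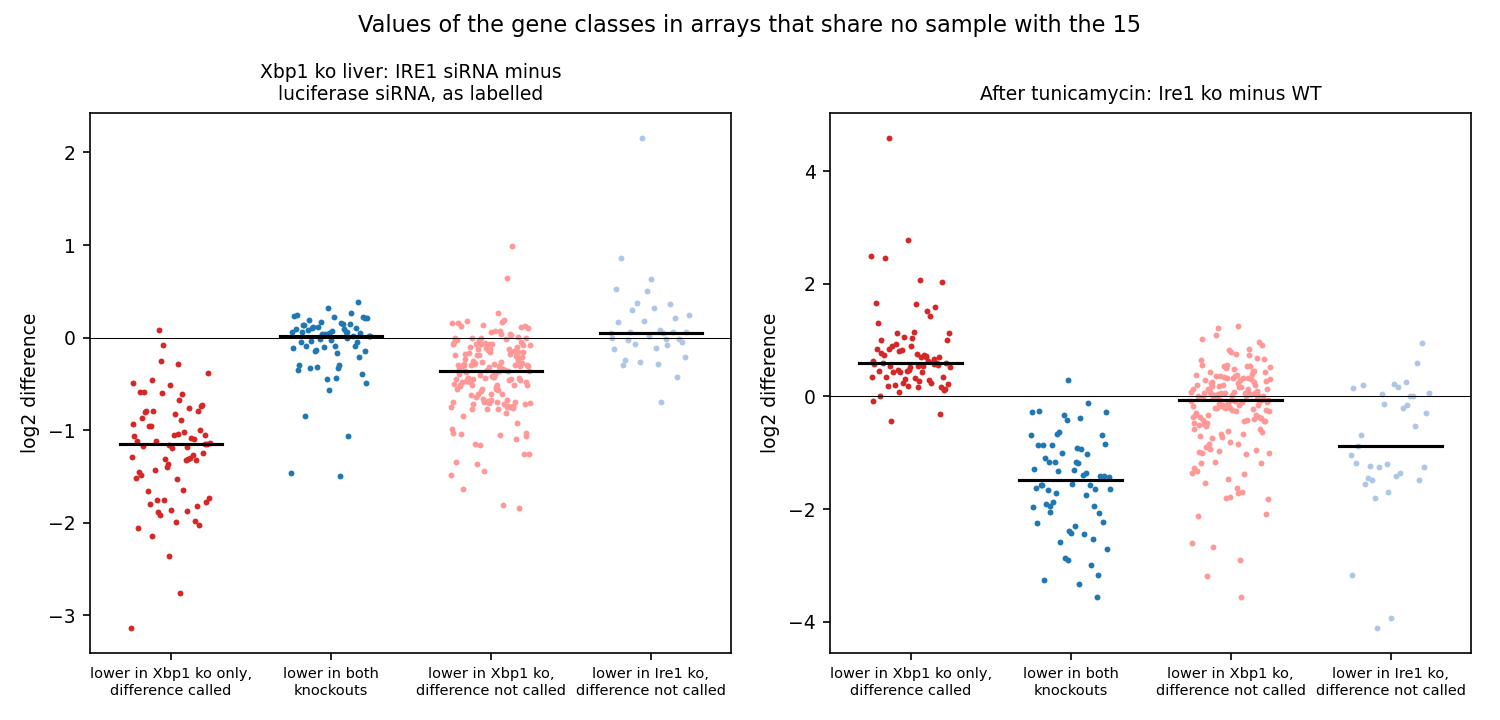
Log2 differences of 4 gene classes, defined in the 15 untreated arrays, in 2 sets of other arrays: arrays labelled IRE1 siRNA minus luciferase siRNA in Xbp1 ko liver (left, 4 arrays each) and Ire1 ko minus WT after tunicamycin (right, 4 arrays each). Each point is a gene and the bar is the class median. The red class has medians of -1.15 on the left and 0.60 on the right. The blue bars are medians of all 66 genes lower in both knockouts. The 65 of these without a called difference have medians of 0.02 and -1.55.

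The 4 groups came from 2 experiments whose WT littermates differed from each other. Between them limma called 1515 genes (9.83%), 481 higher (3.12%) and 1034 lower (6.71%) in the WT littermates of Xbp1 ko, against 894 without replicate 1 of the WT littermates of Ire1 ko and 974 without replicate 1 of those of Xbp1 ko. A shift common to both groups of an experiment cancels in the difference of differences, but one that depends on genotype does not. The 13 hepatocyte markers summed to 39465 to 42845 in WT littermates and 36612 to 38333 in Xbp1 ko, which did not overlap. In the Ire1 experiment they summed to 37779 to 41039 in WT littermates and 35537 to 42236 in Ire1 ko, which overlapped. The defining genes of the labelled tissue were thus bright in every group. Of these 13, limma called 1 lower in Xbp1 ko and 0 in the difference, with 3 lower there at an unadjusted p under 0.05. The 8 cholangiocyte markers on the array, 7 of them tested, summed to 36 to 43, near the floor. The sums of the 6 erythroid markers on the array, 4 of them tested, were 4234 to 7068 in the Xbp1 experiment. They were 2177 to 3533 in the Ire1 experiment, and knockout and WT ranges overlapped within each experiment. Markers of Kupffer cells, endothelium, stellate cells, cholangiocytes, lymphocytes, neutrophils, erythroid cells, pancreas and fat held 0 genes called in the difference by limma, with at most 2 in a direction at an unadjusted p under 0.05. The part of cell composition in the differences above was not tested.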

How the data were processed

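Per the submitters' processing notes, the authors made the deposited values with RMA (background correction, normalization and probe set summary) and the affy package, whose versions are not stated. The deposited unit is probe set intensity on a linear scale in whole numbers, 45037 probe sets on 31 arrays. Genome build and probe coordinates are not given in the sources used here. From these values log2 was taken. Each of 17097 genes was represented by its brightest probe set with exactly 1 symbol. Of the probe sets, 28898 had 1 symbol, 551 had several and 15588 were not in the annotation. Symbols of 16936 genes were brought to current names.

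The 4 groups were fitted together with limma 3.58.1 (R 4.3.3; functions lmFit and eBayes, trend on, 11 residual degrees of freedom). Genes above the 30th percentile of their array in at least 3 arrays were tested, with Benjamini-Hochberg adjustment of p-values and a threshold of 0.05. All tests are two-sided. The siRNA and tunicamycin arrays had fits of 8 arrays each. The number of arrays limits the precision, and intensities carry no count depth. Arrays of the same group had correlations of 0.9841 to 0.992, with 0 identical pairs.

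The comparison, its gene lists and the rule for named genes were chosen with earlier results of these data known. The rule names Xbp1, Ern1, the 12 lowest and 12 highest called differences with a group mean of at least 16, the genes with the largest smaller effect among those called in both knockouts, carboxylesterases, published substrates and up to 4 (for lists called in both knockouts, up to 8) members of each list. Alternatives were other scaling, filters, a pseudocount of 8, averaged probe sets, 1 fit over 31 arrays, array weights, replicate blocks, and each array left out. A separate spread per experiment and a count of genes with a group mean of 16 were added after seeing the data. In simulations, 200 genes were lowered in Xbp1 ko alone, with independent normal noise. They were drawn only from genes well above an intensity of 16 in the WT littermates of Xbp1 ko. On average 11328 genes were tested, against 15415 in the data. There the fit found 79.8% of genes changed 2-fold and 98.3% of those changed 4-fold in the difference of differences. Of its calls, 4.71% were false. These shares do not cover genes near an intensity of 16, dimmer genes or changes in Ire1 ko.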

Additional observations from a re-analysis of the deposited data

Results flagged for a closer look

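Genes whose response to Xbp1 loss and Ire1 loss differed by the test of the difference itself were noted, 81 lower and 12 higher in all. Among carboxylesterases the log2 difference of differences was -2.45 for Ces1c, -3.45 for Ces1d, -3.29 for Ces1e, -2.50 for Ces1f and -5.15 for Ces1g. Among published IRE1 substrates and genes of the ER and membranes it was -3.07 for Bloc1s1, -2.67 for Hgsnat, -1.49 for Tapbp, -3.69 for Tmem238, -2.18 for Tex264, -2.12 for Ptprf, -2.11 for Retreg3, -1.42 for Erp44 and -1.06 for Mlec. Among plasma proteins it was -1.63 for Proc, -1.59 for Hc, -1.37 for F7, -1.23 for Serping1, -1.55 for Afm, -1.10 for Azgp1 and -1.01 for Itih4. Genes of lipid handling, lysosomes and metabolism gave -2.07 for Dgat2, -1.22 for Fads1, -1.18 for Fads2, -1.24 for Lrp1, -1.44 for Lamp1, -1.01 for Tpp1, -1.07 for Gm2a, -1.07 for H2-T23, -1.58 for Ndufa9, -1.44 for Cyp1a2, -0.65 for Slc27a5 and -0.37 for Cyp2e1. Bcl6 had -3.89, through its rise in Ire1 ko. The genes higher in the difference were Serpina4-ps1 at 2.97, Cav1 at 2.63, Cdkn1a at 2.50, Onecut1 at 2.33, H2-Bl at 2.29, Obp2a at 2.23, Adgrv1 at 1.98, Onecut2 and Slc3a2 at 1.04 each, Dapk1 at 0.91, Hopx at 0.71 and Fbp1 at 0.32.

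In 21 of 243 groups of 4 arrays tested over the named genes, 1 array stood far from the other 3, where chance gives about 1 in 20. Replicate 4 of the WT littermates of Xbp1 ko was low for Ptprf (150 against 178 to 183), Retreg3 (15 against 24 to 25) and Serping1 (1562 against 1876 to 1894), and at 5 against 4 for H2-Bl. In the same group replicate 2 stood apart for Ces1c (3735 against 3152 to 3213) and Onecut2 (65 against 80 to 83), replicate 1 for Sec11c (83 against 62 to 64) and replicate 3 for Sec23b (326 against 190 to 208). Xbp1 ko replicate 3 was high for Tmem238 (23 against 14 to 15), Ikbke (23 against 16 to 17), Mlec (37 against 29 to 30) and Afm (332 against 238 to 247). Xbp1 ko replicate 1 stood apart for Retreg3 (5 against 6) and Serping1 (1004 against 793 to 818), and replicate 4 for Sec24d (120 against 136 to 139). In the WT littermates of Ire1 ko, replicate 1 was high for Onecut2 (58 against 47 to 48) and Mlec (138 against 123). Replicate 2 of that group was low for Fads2 (178 against 233 to 243) and Sec23b (264 against 336 to 352). Replicate 3 was low for Cyp51 (153 against 277 to 291) and high for Spcs2 (410 against 353 to 361). The 3 Ire1 ko arrays are too few for this check.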

How the results depend on the processing

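For the genes named in the text, the alternatives tried for the untreated arrays reversed 0 of the called values. The other called genes were not followed one by one. With each array left out in turn, counts lay between 74 and 94 for the difference of differences (65 to 82 lower, 9 to 17 higher), 300 and 445 for Xbp1 ko, 69 and 123 for Ire1 ko, 894 and 1613 for the WT littermates, 42 and 70 for genes lower in both knockouts and 64 and 77 for those lower in Xbp1 ko with the difference called. Of the latter, 55 to 64 were lower in the siRNA arrays and 43 to 54 higher after tunicamycin, and 59 to 62 of the genes lower in both knockouts were lower after tunicamycin. A filter at an intensity of 16 gave 21 genes higher in the difference. One fit over all 31 arrays gave 26 such genes, 203 genes in Ire1 ko and 101 lower in both knockouts. A separate spread per experiment gave 29 lower in both, of which 27 were among the 66; the cause was not tested. Dim genes near the floor of 3 limit every fold.

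Replicate numbers did not pair the samples: same-numbered arrays correlated between -0.18 and 0.27 in their deviations. With the replicate number as a block, counts were 63 for the difference (7 higher), 243 for Xbp1 ko, 39 for Ire1 ko, 26 lower in both knockouts and 53 lower in Xbp1 ko with the difference called. Of the 78 genes lower in Xbp1 ko with the difference called, 18 were then lower in the siRNA arrays, against 67 without the block, and 0 higher.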
